A study of Mus musculus with 12 samples.

Results

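Gene expression was compared between whole ovaries of 3 lethal yellow (LY) mice and 3 lean black mice at 90 days of age, an age before the body weights of these genotypes diverge. The 6 arrays were those of the samples titled yellow or black at 90 days, out of 12 samples in the series, and the other 6 came from LY and black mice at 180 days. LY mice carry the lethal yellow allele over nonagouti (Ay/a), and black mice are a/a littermates, so both genotypes carry a nonagouti allele and differ in the other. The labels write the strain as C56BL/6J and the text of the series as C57BL/6J. All mice were female. Antide, which antagonizes GnRH and so shuts down pituitary gonadotropins, was injected at 10 µg/g on days 1 and 4. Equine chorionic gonadotropin (eCG), a hormone that makes follicles grow, followed at a dose of 1 IU per 5 g of weight. Ovaries were collected on day 7, 36 h after eCG, and trimmed of fat and connective tissue, and 1 ovary of each mouse was run on an array of its own without pooling. LY is a model of agouti made in every tissue and not in the ovary alone.

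Agouti is a secreted protein that normally acts in the skin, where it blocks the melanocortin 1 receptor of pigment cells and turns the pigment from black to yellow. In LY mice a deletion places agouti under the promoter of Raly, a gene of an RNA-binding protein that is active in most tissues, and it takes the coding sequence of Raly and the neighboring gene Eif2s2 from that chromosome. Agouti then also blocks melanocortin receptors in the brain, and the mice become obese as adults. The ovary after eCG holds growing follicles, in which granulosa cells make estradiol from the androgens of theca cells, and steroid synthesis in these cells starts from cholesterol that is taken up or made from acetyl-CoA.

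The promoters of Raly and of agouti carry this background, and both are printed as the 250 bases before the annotated start of the gene in the RefSeq table of build GRCm38.p6, plus strand, with CG dinucleotides in capitals. They are shown because the lethal yellow allele joins the first promoter to the agouti gene.
Raly (chr2:154790860-154791109): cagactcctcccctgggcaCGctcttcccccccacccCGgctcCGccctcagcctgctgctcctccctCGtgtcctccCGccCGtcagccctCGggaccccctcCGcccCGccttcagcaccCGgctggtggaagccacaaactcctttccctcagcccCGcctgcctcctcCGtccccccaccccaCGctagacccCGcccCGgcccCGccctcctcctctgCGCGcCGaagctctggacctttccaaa
agouti (chr2:155013320-155013569): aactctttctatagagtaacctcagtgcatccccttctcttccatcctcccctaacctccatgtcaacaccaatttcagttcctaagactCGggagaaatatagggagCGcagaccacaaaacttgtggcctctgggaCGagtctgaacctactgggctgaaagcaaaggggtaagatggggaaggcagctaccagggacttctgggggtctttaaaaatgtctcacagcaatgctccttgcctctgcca
The Raly promoter held 19 CG dinucleotides at 72.8% G and C, and 94.3% of all promoters in the table had a lower G and C content. The agouti promoter held 3 CG dinucleotides at 50% G and C, and 41.8% of promoters had a lower content. A high CG content is usual for promoters that are active in most tissues.

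Values are relative intensity units, in which each array was scaled to its median, and 0.2 units is the limit of sensitivity that the methods name. The 6 arrays held 80.8% to 82.8% of their values at or above that limit. Arrays correlated at 0.971 to 0.981 within black mice, at 0.975 to 0.989 within LY mice and at 0.962 to 0.984 between the genotypes. The arrays numbered 1 stood slightly apart, with mean correlations of 0.968 (black) and 0.971 (LY) with the other 90-day arrays, against 0.976 to 0.979 for the other 4. The 90-day and 180-day arrays were run as separate sets, so levels are not compared between ages, only differences between genotypes. The labels give the array numbers no further meaning, and the main fit does not pair arrays by them. Fewer cells of a type and less RNA per cell cannot be told apart in whole ovaries.

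Ovaries of 90-day LY and black mice differed at 18 of 30305 probes (0.0594%) by limma, 2 higher and 16 lower in LY mice. Agouti was the 1 gene that rose, and it rose 330.1-fold. The genes that fell by the largest factors were Atp8b4, Wfdc18, Tcf15, Dmkn and Nol4l. Probes named for 1 gene numbered 14 of the 18, and 8 of these also differed at least 1.9-fold, the study's lower limit of fold change, 1 higher and 7 lower. Of 15922 genes, each read from its brightest probe, 1 was called higher (0.00628%) and 12 lower (0.0754%). At an unadjusted p under 0.05, limma counted 4124 probes (13.6%), of which 1604 were higher and 2520 lower. Every LY array lay below every black array for 2038 genes (12.8%) and above for 908 genes (5.7%), and the median log2 difference of all genes was -0.03. With 3 mice against 3, an exact two-sided permutation test of a single gene cannot go below 0.1, so none is given. This fit pools the spread of the arrays of both ages. With the 6 arrays of 90 days alone it called 2 probes, 0% of them lower in LY mice, and 1 of them was among the 18. The lower calls therefore depend on the pooled spread. The count of calls moved from 1 with the replicate number as a block to 204 with an intensity trend in the variance. Without LY array 1 or without LY array 2 agouti alone was called, and without LY array 3 the count was 97.

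**Figure D1:**
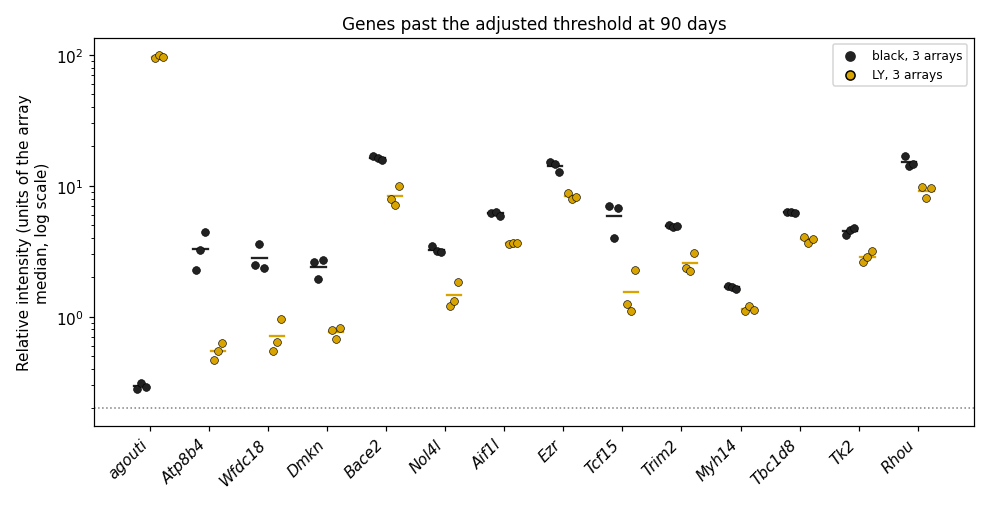
Relative intensity (log scale) of the 14 probes named for 1 gene that passed limma's threshold at 90 days, in 3 black and 3 LY ovaries; each point is an array, each bar a group mean, and the dotted line is the limit of sensitivity of 0.2 units. Agouti lies near 0.3 units in black mice and near 97 units in LY mice, and the points of the other 13 genes are lower in LY mice with no overlap.

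Agouti served as the check of the genotype. Its probe read 0.280, 0.313 and 0.291 units in black mice 1 to 3 and 95.7, 99.2 and 96.8 units in LY mice 1 to 3. The genotypes were far apart and the spread within each was small. The log2 difference was 8.37 (SE 0.234, adjusted p = 5.57e-08), and at 180 days it was 8.53 (adjusted p = 4.5e-08). The level in black mice was just above the limit of sensitivity.

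Raly and Eif2s2, the genes that the lethal yellow deletion takes from 1 chromosome, were lower on every LY array but did not pass the threshold. Raly read 16.9, 16.5 and 13.0 units in black mice and 10.7, 9.51 and 7.75 units in LY mice, a log2 difference of -0.73 (SE 0.193, adjusted p = 0.156). At 180 days the difference was -0.81, and a second Raly probe gave -0.84 at 90 days. Eif2s2, a subunit of the translation initiation factor that brings the first tRNA to the ribosome, read 31.8, 39.8 and 33.3 units in black mice and 23.7, 21.0 and 21.9 units in LY mice. Its log2 difference was -0.65 (SE 0.122, adjusted p = 0.072) at 90 days and -0.43 at 180 days. Raly and Eif2s2 were below the black level at both ages with no overlap. Acss2, which makes acetyl-CoA from acetate and lies 9 genes beyond agouti among the genes tested, read 5.09, 5.68 and 5.18 units in black mice and 2.93, 3.09 and 4.03 units in LY mice. Its log2 difference was -0.68 (adjusted p = 0.0922) at 90 days and 0.45 at 180 days, so the LY arrays lay on opposite sides of the black arrays at these ages.

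Pdrg1 (p53 and DNA damage regulated 1), which lies 31 tested genes before agouti on chromosome 2, had the largest difference after agouti among the higher genes named here. It read 0.746, 0.655 and 0.955 units in black mice and 6.401, 7.45 and 7.18 units in LY mice, 9.01-fold higher in the fit. The log2 difference was 3.17 (SE 0.549), and with an adjusted p of 0.068 it missed the threshold. At 180 days the 3 black arrays read 1.62, 10.4 and 1.76 units and the 3 LY arrays 10.8, 11.4 and 10.6 units. Black array 2 of 180 days therefore lay close to the LY level, while the other 5 black arrays of both ages lay under 2 units. Agouti on that array read 0.368 units, a level near that of the other black arrays. The limma fit pools the spread of both ages, and without that 1 array the adjusted p at 90 days was 1.04e-05, whereas with the 6 arrays of 90 days alone it was 0.00294. Pdrg1 passed the threshold under 7 of 26 alternatives.

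Genes around agouti were read in their order on chromosome 2. Of the 40 tested genes that lie within 20 genes on either side, 3 (7.5%) had every LY array below every black array at both ages. None was above at both. These 3 were Bpifb6 and the deleted Raly and Eif2s2, which are also counted in the wider window. Of the 120 within 60 genes, 6 were below and 1 above at both ages (5.83%), against 153 below and 122 above among all 15921 genes other than agouti (1.73%). Neighbors on a chromosome are not independent, and no test was made of this. Bpifb6, of a family of lipid-binding secreted proteins, lies 16 genes before agouti with a log2 difference of -2.51 (adjusted p = 0.1), and Tm9sf4, a membrane protein of the secretory pathway, lies 29 genes before it at -0.60. Of the 14 genes past the threshold, 5 lie on chromosome 2 (agouti, Nol4l, Tcf15, Aif1l and Atp8b4), where 8.05% of the tested probes with a position lie. The 5 include agouti itself, which the genotype sets, and Atp8b4, whose brighter probe showed no such difference. Nol4l and Tcf15 are 22 and 54 genes before agouti, while Aif1l and Atp8b4 lie outside the 60 genes on either side.

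**Figure D2:**
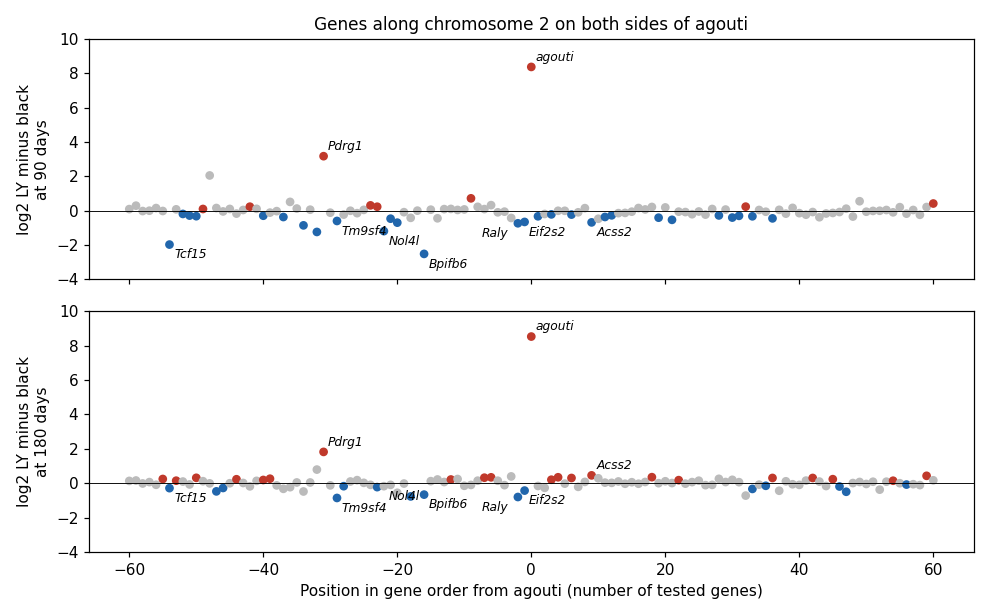
Log2 difference of LY from black mice for the 60 tested genes on either side of agouti in their order on chromosome 2, at 90 days (top) and 180 days (bottom); red or blue points have every LY array above or below every black array and gray points overlap. Agouti stands at 8.37 and 8.53, Pdrg1 at 3.17 and 1.82, and Raly at -0.73 and -0.81.

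The 5 genes with the largest decreases past the threshold averaged under 6 units in black mice. Atp8b4, of the family of phospholipid flippases, read 2.29, 3.26 and 4.41 units in black mice and 0.463, 0.546 and 0.632 units in LY mice on 1 of its probes, a fall by 2.56 on the log2 scale (SE 0.256, adjusted p = 0.00975). Its brighter probe showed no such difference, at 4.08, 3.63 and 5.83 units in black mice and 3.66, 4.05 and 5.79 units in LY mice. The probes of Atp8b4 therefore disagree. Wfdc18, a small secreted protein with a whey acidic protein domain, read 2.49, 3.62 and 2.37 units in black mice and 0.552, 0.637 and 0.959 units in LY mice. It fell by 1.99 on the log2 scale (SE 0.2, adjusted p = 0.00975), and all LY arrays lay below all black arrays. Dmkn, dermokine, a secreted protein of surface epithelia, read 2.60, 1.93 and 2.70 units in black mice and 0.792, 0.680 and 0.822 units in LY mice, and fell by 1.65 (SE 0.177, adjusted p = 0.0146). Tcf15, a helix-loop-helix transcription factor known from the early mesoderm, read 6.97, 4.00 and 6.80 units in black mice and 1.25, 1.11 and 2.26 units in LY mice, and fell by 1.97 (SE 0.263, adjusted p = 0.0357). Nol4l, a nuclear protein, read 3.47, 3.18 and 3.13 units in black mice and 1.20, 1.32 and 1.84 units in LY mice, and fell by 1.19 (SE 0.143, adjusted p = 0.0276). A dimmer Nol4l probe stood at a log2 difference of 0.13. For each of these genes the highest LY mouse lay well under the lowest black mouse on the probe that passed.

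Ezr, Aif1l, Myh14 and Rhou fell, and their products are known from the actin skeleton and cell shape, a grouping made after the genes were seen and not tested. Ezr (ezrin), which ties the plasma membrane to actin filaments in microvilli, read 15.1, 14.8 and 12.7 units in black mice and 8.77, 7.997 and 8.20 units in LY mice. Ezr fell by 0.77 (SE 0.101, adjusted p = 0.0357). Aif1l, an actin-binding protein, read 6.25, 6.33 and 5.90 units in black mice and 3.62, 3.63 and 3.69 units in LY mice, and fell by 0.76 (SE 0.097, adjusted p = 0.0336). The 3 LY mice were almost equal for Aif1l. Myh14, a nonmuscle myosin heavy chain, read 1.73, 1.67 and 1.62 units in black mice and 1.10, 1.22 and 1.12 units in LY mice, and fell by 0.55 (adjusted p = 0.0401). Rhou, a small GTPase of cell shape, read 16.8, 14.1 and 14.6 units in black mice and 9.83, 8.06 and 9.64 units in LY mice, and fell by 0.73 (adjusted p = 0.0496), while its second, dim probe stood at -0.00. Ezr, Aif1l, Myh14 and Rhou were also lower on every LY array at 180 days, at -0.23, -0.34, -0.33 and -0.11. For Rhou the genotypes nearly met there, with the highest LY array at 10.785 units and the lowest black array at 10.787 units.

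The other genes past the threshold have varied roles. Bace2, a protease related to beta-secretase, read 16.8, 16.2 and 15.8 units in black mice and 7.96, 7.14 and 10.0 units in LY mice, and fell by 0.97 (SE 0.114, adjusted p = 0.026). At 180 days every LY array lay above every black array for Bace2, with a log2 difference of 0.20. Trim2, a ubiquitin ligase, read 5.00, 4.83 and 4.96 units in black mice and 2.36, 2.25 and 3.06 units in LY mice, and fell by 0.96 (adjusted p = 0.0357). Tbc1d8, a protein with a domain that switches off Rab GTPases, fell by 0.70 from 6.31 ± 0.0682 to 3.90 ± 0.199 units (SD, n = 3 each). Tk2, the mitochondrial thymidine kinase that salvages nucleotides for mitochondrial DNA, fell by 0.66 from 4.53 ± 0.278 to 2.88 ± 0.286 units, and both genes had an adjusted p of 0.0439. The higher probe beside agouti is named for the ribonucleases Rnase2a and Rnase2b together and read 0.216 ± 0.0181 units in black and 0.371 ± 0.0359 units in LY mice. The 3 probes without a gene name were lower, at log2 differences of -0.88, -1.40 and -1.64. For the first of them all LY arrays lay under 0.2 units, which makes it at least 1.31-fold lower, and the last lacked 1 black value. All 18 probes separated the genotypes with no overlap at 90 days, and 8 of them did so in the same direction at 180 days, where agouti alone passed the threshold.

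Genes just outside the threshold are given as values. Ppil6, a peptidyl-prolyl isomerase, had a log2 difference of -1.26 (adjusted p = 0.0506), with 0.952, 1.33 and 1.32 units in black mice and 0.530, 0.476 and 0.487 units in LY mice. Gna11, a G protein subunit of calcium signaling, stood at -0.63 (adjusted p = 0.0506) on its dimmer probe and at -0.34 on its brighter one. Among the higher genes named by p, agouti and Pdrg1 apart, log2 differences ran from 0.38 to 0.84, except on a dim probe of Ssh2. Epop, a partner of the Polycomb repressive complex, stood at 0.64 (adjusted p = 0.0802) and Wdr76, a nuclear protein of the DNA damage response, at 0.49 (0.092). Chrna5, a subunit of nicotinic acetylcholine receptors, stood at 0.57, the odorant receptor gene Olfr478 at 0.84, Serpini2, a serine protease inhibitor, at 0.45, Ly6g5c, of the Ly6 family of surface proteins, at 0.43, and Gxylt1, a xylosyltransferase that modifies Notch, at 0.38. The uncharacterized transcripts 4933405D12Rik, 4930550L24Rik and 4930581F22Rik stood at 0.79, 0.52 and 0.60. Adjusted p-values of these 10 genes ran from 0.062 to 0.097, and the LY arrays lay above the black arrays for each. Lrat, which esterifies retinol, and Ankrd29, an ankyrin repeat protein, stood at 0.59 and 0.42 on dimmer probes, with overlap on their brighter ones. Ssh2, a cofilin phosphatase, read 0.0862, 0.0657 and 0.0771 units in black mice and 0.172, 0.170 and 0.294 units in LY mice on a dim probe (adjusted p = 0.0934), with all but 1 value under the limit of sensitivity, and overlapped on its brighter probe.

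The receptors that agouti acts on were measured next. The melanocortin list had 11 tested members, of which 0 passed the threshold, and the median log2 difference was 0.01. Of these members 2 had every LY array below every black array and 0 above, where 12.8% and 5.7% of all genes did. Mc1r, the receptor of pigment cells, averaged 4.94 units in black and 4.95 units in LY mice, and Mc4r, the receptor of the appetite circuit, 1.34 and 1.45 units. Mrap, the accessory protein that takes the ACTH receptor to the cell surface, read 44.4, 49.7 and 42.2 units in black mice and 32.5, 30.4 and 40.9 units in LY mice, a log2 difference of -0.40 (adjusted p = 0.218). At 180 days Mrap stood at 0.86. Mgrn1, a ubiquitin ligase of the pigment pathway, stood at -0.30. The gene list around the agouti locus, with 21 tested members, had 1 called (agouti) and a median of -0.14. It had 7 members with every LY array below and 1 above every black array. The 1 above was agouti itself, and the 7 below include the deleted Raly and Eif2s2.

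Cholesterol synthesis leaned lower in LY mice at 90 days, with no gene past the threshold. Of 18 tested enzymes, 9 had every LY array below every black array and 0 above, where 12.8% and 5.7% of all genes did, and the median log2 difference was -0.32 against -0.03 for all genes. The median of the genes' centered log2 values was 0.10, 0.23 and 0.09 in black mice and -0.16, -0.18 and -0.10 in LY mice. Summed over the list, intensity was 455 to 493 units in black mice and 365 to 395 units in LY mice. Every LY mouse thus lay below every black mouse on both summaries.

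Within the pathway the genes of the early and middle steps gave the following values. Hmgcs1, a synthase of an early step of the pathway, read 3.60, 4.08 and 3.14 units in black mice and 2.59, 2.24 and 2.65 units in LY mice, a log2 difference of -0.53 (SE 0.116, adjusted p = 0.103). Mvd, which makes isopentenyl diphosphate, read 9.53, 8.78 and 9.67 units in black mice and 7.09, 5.87 and 6.31 units in LY mice, at -0.54 (adjusted p = 0.194). Fdps, which builds farnesyl diphosphate, read 104, 123 and 96.3 units in black mice and 76.6, 68.5 and 83.5 units in LY mice, at -0.50 (SE 0.109, adjusted p = 0.103). The genotypes did not overlap for any of these 3 genes. Sqle, squalene epoxidase, stood at -0.59 (adjusted p = 0.187), Lss, lanosterol synthase, at -0.32 (0.373) and Msmo1, a sterol C4 demethylase, at -0.35 (0.335). Other members overlapped, such as the isomerase Idi1, at 12.3 ± 1.63 units in black and 12.3 ± 0.848 units in LY mice, and Cyp51, lanosterol demethylase, at 37.8 ± 6.15 and 34.3 ± 2.27 units (SD, n = 3 each). Hsd17b7, which acts both in cholesterol synthesis and in making estradiol and is known from luteal cells, read 14.4, 6.81 and 10.4 units in black mice and 3.24, 2.37 and 3.89 units in LY mice. Its log2 difference of -1.70 (SE 0.286, adjusted p = 0.0656) was the largest of the list.

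The transcription factor of this pathway and its promoter motif were looked at as well. Srebf2 encodes SREBP-2, which turns on these genes when membrane sterol is low, and it read 2.72, 3.40 and 3.10 units in black mice and 2.09, 2.35 and 2.38 units in LY mice (log2 difference -0.43, adjusted p = 0.105). SREBP-2 and its other targets, 8 tested, had 2 with every LY array below and 0 above, and a median of -0.20. Among all genes 12.8% lay below and 5.7% above. The promoter of Hmgcs1 (chr13:119690101-119690350, plus strand, GRCm38.p6, from RefSeq) is shown with the sterol element TCACNCCAC in capitals.
Hmgcs1: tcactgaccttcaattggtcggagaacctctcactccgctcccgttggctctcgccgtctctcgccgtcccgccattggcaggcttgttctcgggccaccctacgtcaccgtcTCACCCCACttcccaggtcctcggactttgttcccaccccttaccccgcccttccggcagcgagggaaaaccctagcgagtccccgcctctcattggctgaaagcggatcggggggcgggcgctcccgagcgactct
The element starts 137 bases before the annotated start. Searched on both strands of the 250 bases before the start, it was in 1 of 15 promoters of cholesterol synthesis genes in the table (6.67%), in 128 of 12744 promoters of tested genes (1%) and in 280 of 27025 promoters in all (1.04%). The 1 match among the 15 is the Hmgcs1 promoter shown here. A match of these letters is not a measured site.

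Related lipid lists were read in the same way, beside the 12.8% of all genes with every LY array below and the 5.7% above. Fatty acid synthesis, with 16 tested members, had 0 called, 5 with every LY array below and 0 above, and a median of -0.11, with Aacs, acetoacetyl-CoA synthetase, at -0.36. Genes of cholesterol uptake, storage and efflux, 8 tested, had 4 below and 0 above and a median of -0.32. Scarb1, the receptor that takes cholesterol ester from HDL, read 52.5, 46.4 and 63.9 units in black mice and 27.5, 29.6 and 39.1 units in LY mice, a log2 difference of -0.77 (adjusted p = 0.193). The genotypes did not overlap for Scarb1. Ovarian steroidogenesis, 11 tested, had 3 below and 0 above and a median of -0.10. Star, which carries cholesterol into mitochondria, read 33.2, 36.3 and 29.6 units in black mice and 22.2, 18.6 and 30.3 units in LY mice (log2 difference -0.50, adjusted p = 0.347), with overlap. Cyp11a1, the enzyme that cleaves the side chain of cholesterol, stood at -0.37 (adjusted p = 0.278).

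**Figure D3:**
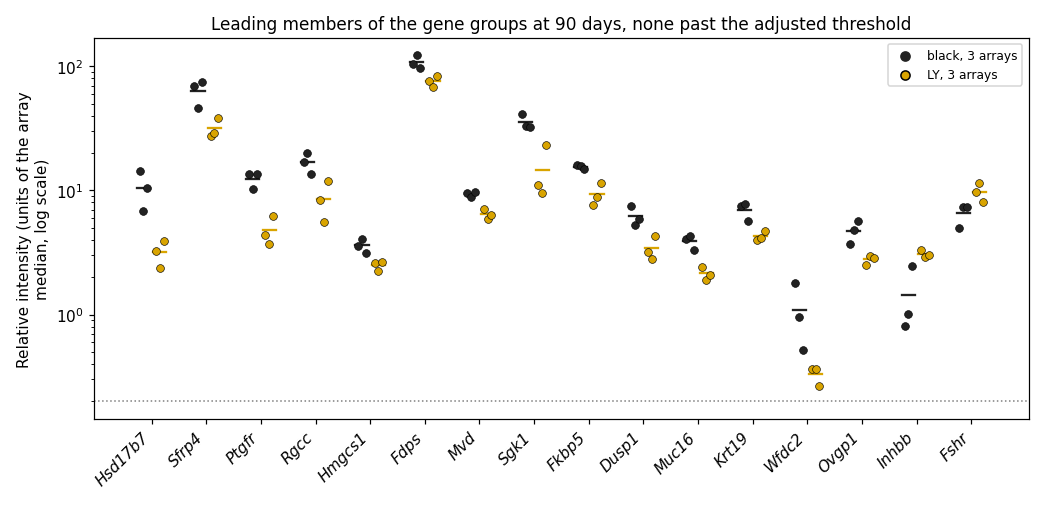
Relative intensity (log scale) of 16 genes of the groups described, in 3 black and 3 LY ovaries at 90 days; points are arrays and bars group means, and none of these genes passed limma's threshold. The points of Hsd17b7, Sfrp4, Ptgfr and Sgk1 lie lower in LY mice, and those of Inhbb and Fshr higher, each with no overlap.

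Markers of luteal cells, the progesterone-making cells that form after ovulation, had the lowest median of the cell type lists. Of 6 tested, 5 had every LY array below every black array and 0 above, where 12.8% and 5.7% of all genes did. None passed the threshold, and the median log2 difference was -0.93, against -0.17 at 180 days. Their summed intensity was 214 to 220 units in black mice and 124 to 162 units in LY mice. A large part of this sum is Cyp11a1, a member that is also on the theca list, at 117 units in black and 91.1 units in LY mice. The paper reports, from unpublished preliminary work, that its suppression protocol left no corpora lutea on histology. The sum is therefore not a measure of luteal tissue. Sfrp4, a secreted Wnt antagonist of the corpus luteum, read 68.8, 46.4 and 75.3 units in black mice and 27.6, 28.9 and 38.4 units in LY mice, at -0.99 (SE 0.223, adjusted p = 0.108). Ptgfr, the receptor through which prostaglandin F2 alpha ends luteal function, read 13.6, 10.2 and 13.6 units in black mice and 4.40, 3.67 and 6.23 units in LY mice. Its log2 difference was -1.41 (adjusted p = 0.265), and -0.88 on its other probe. Parm1, a mucin-like protein of luteal cells, stood at -0.87 with overlap, and its dimmer probe at -1.20 (adjusted p = 0.072). Hsd17b7, described with cholesterol synthesis, is a member of this list as well. Sfrp4 and Ptgfr separated the genotypes on the probes read here, and Parm1 did so on its dimmer probe but not on its brighter one.

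Genes that the ovulatory surge induces in granulosa cells lay on both sides of the black level. The list of the LH surge and cumulus expansion, 14 tested, had 4 with every LY array below and 1 above every black array. Of all genes 12.8% lay below and 5.7% above. The median of the list was -0.12. Rgcc, a regulator of the cell cycle that is induced before ovulation, read 17.1, 20.1 and 13.7 units in black mice and 8.33, 5.52 and 11.9 units in LY mice, at -1.03 (adjusted p = 0.139). Edn2, the endothelin of follicle rupture, stood at -0.61, Cebpb, a transcription factor of luteinization, at -0.47, and Ereg, an EGF-like factor, at 0.45 (adjusted p = 0.398).

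Granulosa cell markers had a median on the other side of 0. Of 11 tested, 2 had every LY array above and 1 below every black array, where 5.7% and 12.8% of all genes did. None passed the threshold, and the median was 0.25, against -0.41 at 180 days. Their summed intensity overlapped, at 320 to 423 units in black mice and 316 to 460 units in LY mice. Inhbb, the beta B subunit of inhibin and activin, read 0.810, 1.02 and 2.47 units in black mice and 3.29, 2.93 and 3.02 units in LY mice, at 1.28 (SE 0.349, adjusted p = 0.167). Fshr, the FSH receptor, which marks granulosa cells, read 4.97, 7.35 and 7.37 units in black mice and 9.70, 11.5 and 8.01 units in LY mice, at 0.58 (adjusted p = 0.351). Theca cell markers, 8 tested, had 1 below and 0 above and a median of 0.01. Oocyte markers, 18 tested, had 2 above and 1 below and a median of 0.13, with -0.49 at 180 days. Cell cycle and DNA replication genes, 22 tested, had 1 above and 1 below and a median of 0.18. Mcm2, of the replicative helicase, stood at 0.45 (adjusted p = 0.215), and Cdkn1a, the p21 inhibitor of the cell cycle, read 3.15, 2.53 and 2.70 units in black mice and 1.76, 1.60 and 1.82 units in LY mice, at -0.69 (adjusted p = 0.097). As for the tissue, Fshr lay at 4.97 units or more on all 6 arrays, Cyp17a1, an androgen-making enzyme of theca cells, at 89.8 units or more, and Zp3, an egg coat protein of oocytes, at 19.2 units or more.

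Markers of the ovarian surface and of other epithelia leaned lower in LY mice. Of 13 surface epithelium markers tested, 7 had every LY array below every black array and 0 above. Among all genes 12.8% and 5.7% did. None of the markers passed the threshold, and their median was -0.50, against -0.22 at 180 days. Their summed intensity was 65.2 to 80.0 units in black mice and 58.7 to 62.0 units in LY mice. Muc16, a mucin of the ovarian surface, averaged 3.89 ± 0.52 units in black mice and 2.14 ± 0.27 units in LY mice (SD, n = 3 each), at -0.86 (adjusted p = 0.112). Krt19, a keratin, read 7.48, 7.77 and 5.64 units in black mice and 4.00, 4.14 and 4.73 units in LY mice, at -0.69 (adjusted p = 0.126). Krt7 and Msln, a keratin and mesothelin, stood at -0.61 (0.125) and -0.83 (0.102). All of these were apart between the genotypes, with black array 3 the nearest to the LY level for the keratins and Muc16. Epithelium in general, 20 tested, had 5 below and 0 above and a median of -0.30. Cldn3, a tight junction claudin, stood at -0.59 (0.102), Elf3, an epithelial transcription factor, at -0.93, and Spint1, a protease inhibitor, at -0.54.

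Markers of the oviduct, which lies beside the ovary, stood on the same side. Of 7 tested, 4 had every LY array below every black array and 0 above, where 12.8% and 5.7% of all genes did. Wfdc2 and Cldn3 are among these 4 and are also counted below in the list of epithelium in general, so the 2 lists are not independent. The median was -0.54, and summed intensity was 16.3 to 19.4 units in black mice and 12.01 to 12.13 units in LY mice. The defining oviduct genes Pax8 and Foxj1 lay under the filter in both groups. Ovgp1, the oviductal glycoprotein, read 3.73, 4.76 and 5.69 units in black mice and 2.53, 2.96 and 2.84 units in LY mice, at -0.75 (adjusted p = 0.072), and Sox17, a transcription factor of oviduct and vessels, stood at -0.31. Wfdc2, a secreted epithelial protein, read 1.80, 0.963 and 0.514 units in black mice and 0.367, 0.362 and 0.266 units in LY mice, at -1.55 (adjusted p = 0.149). Motile cilia, 16 tested, had 3 below and 0 above and a median of -0.19, with Rsph1, of the radial spoke, at -0.79 (adjusted p = 0.108). Dimmer probes of Hydin, a member of the cilia list, went the other way. On them every LY array lay above every black array, at 0.25 (adjusted p = 0.294) and 0.42 (adjusted p = 0.117). The epithelial and oviduct markers stood lower together with the decreases of Dmkn, Wfdc18 and Ezr, and their part in those decreases was not tested.

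The list of glucocorticoid metabolism and response, 14 tested, had 4 members with every LY array below every black array (Sgk1, Fkbp5, Dusp1 and H6pd) and 0 above, where 12.8% of all genes lay below, with a median of -0.12. H6pd supplies the cofactor of Hsd11b1, and the other 3 are known to be induced by glucocorticoids. The remaining members, among them Tsc22d3, Per1 and Klf9, overlapped between the genotypes. Log2 differences over the list ran from -1.40 to 0.64, and 3 of the 14 were positive. Sgk1, a kinase of sodium transport, read 41.0, 33.2 and 32.7 units in black mice and 11.0, 9.57 and 23.1 units in LY mice, at -1.40 (SE 0.293, adjusted p = 0.0965). Fkbp5, the co-chaperone that damps the glucocorticoid receptor, read 15.97, 15.7 and 15.005 units in black mice and 7.59, 8.92 and 11.4 units in LY mice, at -0.76 (adjusted p = 0.097). Dusp1, a MAP kinase phosphatase, read 7.55, 5.26 and 5.85 units in black mice and 3.20, 2.81 and 4.27 units in LY mice, at -0.87 (adjusted p = 0.072). LY array 3 was the nearest to the black level for Sgk1, Fkbp5 and Dusp1, and LY array 1 for H6pd. Immediate early genes, which respond within minutes to many stimuli and to handling of tissue, had 7 of 21 members below and 0 above and a median of -0.25. Ier3 and Ier2 stood at -0.41 and -0.35. Their part in the glucocorticoid group, which shares Dusp1, was not tested.

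**Figure D4:**
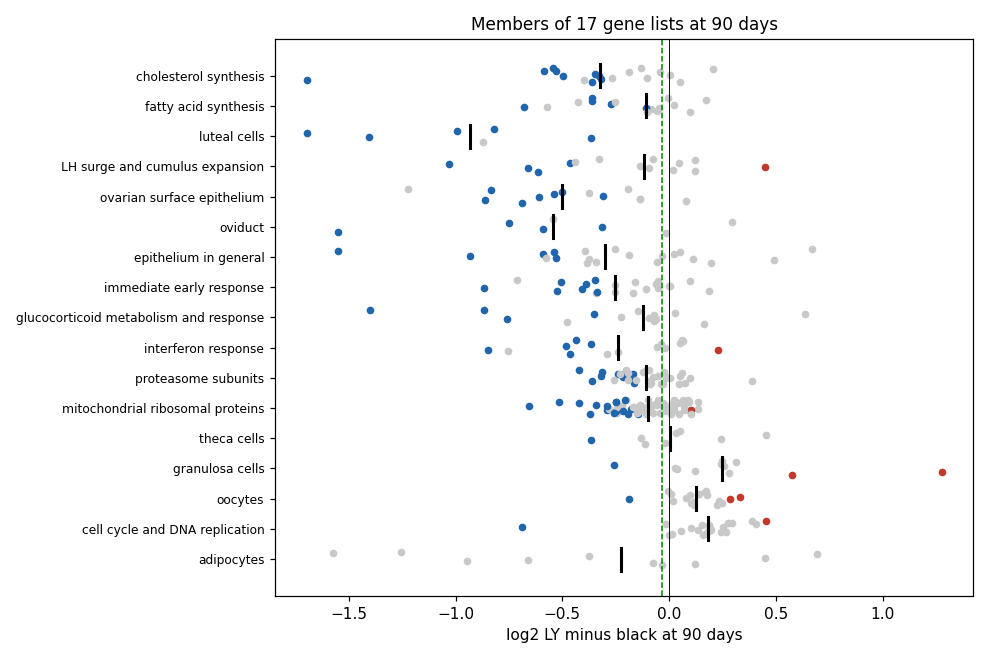
Log2 difference of LY from black mice at 90 days for each tested gene of 17 lists, 1 point per gene; blue or red points have every LY array below or above every black array, gray points overlap, black ticks are list medians and the dashed green line is the median of all genes (-0.03). Luteal cells lie lowest at -0.93 and granulosa cells highest at 0.25.

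The remaining cell type lists and the interferon response are given by their counts, to be read beside the 12.8% of all genes with every LY array below and the 5.7% with every LY array above. Adipocyte markers, 10 tested, had 0 members that separated the genotypes and a median of -0.23. Their summed intensity was 88.8, 30.2 and 71.3 units in black mice and 65.9, 31.1 and 49.3 units in LY mice, so the array numbered 2 was low in both genotypes. Macrophages and leukocytes, 14 tested, had 4 above and 1 below and a median of 0.05, with H2-Aa, an MHC class II chain, at 0.33. Lymphocytes, 11 tested, had 3 above and 0 below, with Cd3g, a T cell receptor chain, at 0.38. Endothelium, 10 tested, had 3 below (median -0.23), smooth muscle, 11 tested, 2 below (-0.08), and skeletal muscle, 7 tested, 1 below (-0.28). Adrenal cortex, 4 tested, had 1 below (0.01), pancreas and liver, 5 tested, 1 below (0.07), and kidney and urinary tract, 7 tested, 0 in either direction (-0.02). Of the red blood cell markers 1 was tested, at 0.09 with overlap. Interferon response genes, 15 tested, had 5 below and 1 above (median -0.24), with Rsad2, an antiviral enzyme, at -0.85 (adjusted p = 0.097) near the limit of sensitivity.

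Growth factor, stress and housekeeping lists gave small medians. Their counts are to be read beside the 12.8% of all genes that lay below and the 5.7% that lay above. IGF ligands and binding proteins, 11 tested, had 4 below and 0 above and a median of -0.17, with Igfbp3 at -0.69 and Igfbp2 at -0.60. Vegfa, the main growth factor of blood vessels, read 9.38, 9.35 and 8.95 units in black mice and 6.13, 6.87 and 7.14 units in LY mice, at -0.46 (adjusted p = 0.0822). Its list of heat shock and hypoxia, 15 tested, had 1 below (median -0.06). Collagens and matrix, 24 tested, had 7 below (-0.19), TGF-beta and BMP genes, 24 tested, 2 below (-0.08), endoplasmic reticulum stress, 15 tested, 2 below (0.10), and apoptosis, 16 tested, 2 below (-0.03), all with 0 above. Hedgehog signaling, 9 tested, and the renin-angiotensin system, 6 tested, had none in either direction, with medians of 0.07 and -0.05. Leptin and insulin signaling, 13 tested, had 1 above and 3 below (-0.03). Mitochondrial ribosomal proteins, 70 tested, had 16 below and 1 above (-0.10), with Mrpl34 at -0.66 (adjusted p = 0.0619) and 1 black value missing. Respiratory chain subunits, 72 tested, had 13 below and 1 above (-0.10), proteasome subunits, 37 tested, 11 below and 0 above (-0.11), with Psmc5 at -0.42 (adjusted p = 0.097), and cytosolic ribosomal proteins, 58 tested, 7 below and 0 above (-0.03).

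The genes that the study listed for 180-day mice were read at 90 days to see whether they already differed before body weights diverged. The study chose this list on the 180-day arrays of the same series. Of 24 tested, agouti alone passed the threshold, and the median was -0.15, against 0.91 at 180 days. At 90 days 1 had every LY array above and 6 below every black array, where 5.7% and 12.8% of all genes did. Lep (leptin), the hormone of fat cells, read 0.169, 0.0814 and 0.242 units in black mice and 0.842, 0.0414 and 0.403 units in LY mice. The 2 genotypes overlapped and LY array 2 was the lowest of all 6, with a log2 difference of 0.69 (adjusted p = 0.82) that turned to -0.21 without LY array 1. All 3 black arrays were near or under the limit of sensitivity. Adipoq (adiponectin), another fat cell gene, read 23.9, 1.96 and 16.01 units in black mice and 13.6, 0.507 and 8.001 units in LY mice, so array 2 was lowest in each genotype for both genes, and the part of fat in the Lep values was not tested. Agt (angiotensinogen) averaged 12.2 ± 2.03 units in black mice and 12.6 ± 0.656 units in LY mice. Hsd11b1, which regenerates active glucocorticoid, averaged 0.624 ± 0.0209 and 0.719 ± 0.214 units, and Hsd11b2, which inactivates it, 5.79 ± 2.36 and 5.21 ± 0.874 units, all with overlap.

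Differences between genotypes were compared between the ages with limma's interaction contrast. Of 30164 probes, 0 passed the threshold (0%), the smallest adjusted p was 0.0537, and 3762 probes (12.5%) had an unadjusted p under 0.05. Genes with every LY array below every black array at 90 days and above at 180 days numbered 443 (2.78%), and 49 genes (0.308%) went the other way. Cholesterol synthesis enzymes had 9 of 18 members below at 90 days and 15 of 18 above at 180 days, with medians of -0.32 and 0.85. Fdps had a log2 difference of -0.50 at 90 days and 0.86 at 180 days, and Hmgcs1 -0.53 and 0.90, each with an adjusted p of 0.0537 for the difference between ages. No gene passed the threshold for the difference between ages in this fit, and with an intensity trend in the variance 210 probes did.

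**Figure D5:**
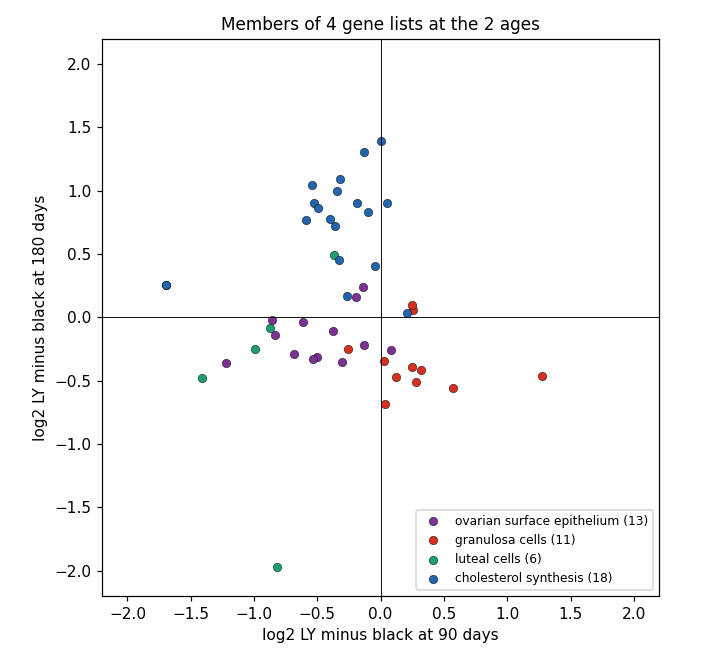
Log2 difference of LY from black mice at 90 days (horizontal) against that at 180 days (vertical) for cholesterol synthesis enzymes, luteal, surface epithelium and granulosa markers, 1 point per gene. Most enzymes of cholesterol synthesis lie left of 0 and above 0, with medians of -0.32 and 0.85.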

How the data were processed

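The methods and labels describe 1-colour CodeLink whole mouse genome arrays, scanned with GenePix, background-corrected with the CodeLink software and normalized in GeneSpring 7.0. The authors deposited relative intensity values scaled to the 50th percentile of each slide. The 90-day arrays had medians near 1.04, with 166 to 503 values missing and 74 to 144 negative. Centering of genes on their medians, also named in the methods, is not in the deposited intensity values. The platform annotation names 1 gene for 21615 of 36227 probes, several for 681 and none for 13931. Of the first set, 21487 matched a gene of the GRCm38.p6 annotation by identifier, 0 with another symbol, and agouti is written by its name.

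Each array was divided by its median, floored at 0.01 units and taken to log2. Probes whose mean reached 0.2 units in either 90-day group were tested (30305, after 1 that could not be estimated, 18678 of them named for 1 gene) with limma 3.58.1 in R 4.3.3, as group means of all 12 arrays (residual degrees of freedom 8, prior 2.68), with the Benjamini-Hochberg adjustment over all probes tested, two-sided, at a threshold of 0.05. Differences are log2 LY minus black, which for dim probes vary with the floor. A gene is read from the probe with the highest mean, and order along chromosome 2 is that of tested genes. Each mouse is 1 replicate, so precision is limited by their number. The procedure was tested on simulated data.

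The text names up to 15 genes in each direction by p with no overlap between genotypes (filled past the threshold, values only), agouti, Raly, Eif2s2 and genes of the study's list, and of each gene list up to 4 genes by p, with the 2 most abundant for cell types. Other probes, Bpifb6, Tm9sf4 and the comparison of chromosomes were chosen after their values were seen. The members and lists were chosen with earlier results of these data known. Sequences are from RefSeq, and figures were drawn with Python 3.11.15 and matplotlib 3.10.9. The alternatives were the samples, floor, pseudocount, scaling, filter, variance model, array weights, replicate block, the methods' t-test and leaving out each array. Body weights, RT-PCR and some genes of the lists are not analysed or not reported here.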

Additional observations from a re-analysis of the deposited data

Results flagged for a closer look

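Genes described above whose 3 LY arrays lay on one side of the 3 black arrays at 90 days and on the other side at 180 days are listed with their log2 difference at 90 days minus that at 180 days. No such difference between ages passed limma's threshold, with adjusted p-values of the interaction from 0.0537 to 0.165. In cholesterol synthesis and its regulation the values were -1.36 for Fdps, -1.43 for Hmgcs1, -1.59 for Mvd, -1.41 for Lss, -1.35 for Msmo1, -1.36 for Sqle and -0.90 for Srebf2, each below the black mice at 90 days and above them at 180 days. The same order was seen for Aacs (-1.30) and Acss2 (-1.13), enzymes that make activated acetoacetate and acetate, for Cyp11a1 (-0.86), the first enzyme of steroid synthesis, and for Mrap (-1.27), the partner of the ACTH receptor. Wfdc18 (-2.07) and Bace2 (-1.17), which fell at 90 days, lay slightly above the black mice at 180 days, at 0.08 and 0.20. Mrpl34 of the mitochondrial ribosome stood at -0.93, Igfbp2 at -1.41 and H6pd of the glucocorticoid list at -0.57. The transcript 4930581F22Rik was above at 90 days and below at 180 days, a difference of 0.76.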

How the results depend on the processing

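Agouti passed the threshold under all 26 alternatives, at log2 differences of 7.95 to 8.46. The other 13 genes kept their direction under all of them and passed in 6 (Rhou) to 21 (Atp8b4). Against 18 probes called, 8 with the fold limit and 0 for the difference between ages, the counts were as follows. The 6 arrays of 90 days alone called 2 and 2, of which 1 was among the 18. A floor of 0.2 units called 135, 35 and 17, a pseudocount of 0.1 units 62, 22 and 27, and a filter at 0.5 units 181, 39 and 143. No filter called 4 and 4, an intensity trend 204, 45 and 210, and array weights 3, 3 and 2. Quantile normalization gave 4 for the difference between ages and a median of all genes of 0.01. The methods' t-test called 1 and 1 with Benjamini-Hochberg and 2766 and 107 at the unadjusted threshold, of which 63.4% were lower against 88.9% of the 18. Leaving out 1 array gave 1 to 97 probes, 1 to 48 with the fold limit and 0 to 50 for the difference between ages. Probes called numbered 1 without LY_90d replicate 1 or 2, 97 without LY_90d replicate 3, 28 without black_90d replicate 3 and 9 without black_90d replicate 2. Of the 180-day arrays, which enter through the spread, black replicates 1, 2 and 3 left 8, 11 and 4 when omitted, and LY replicates 1 and 2 left 9 and 4. The highest fold-limit count and the 50 for ages were without LY_90d replicate 3. The cholesterol synthesis median ran from -0.35 to -0.26 when 1 array was left out, with -0.26 without black_90d replicate 2. Without both 90-day arrays numbered 1, added after seeing the data, the counts were 3, 3 and 1. With the replicate block they were 1, 1 and 0. Same-numbered mice had correlated deviations of 0.0716 to 0.167 at 90 days and -0.0776 to -0.00211 at 180 days. Between differently numbered mice at 90 days the values were negative, down to -0.186, except 0.137 for black array 3 with LY array 2. The labels do not say that a number stands for a shared run, so the main fit does not pair by number. A shared run was not tested. Among the 70 genes recomputed that did not pass, Lep alone turned its direction, to -0.24 with array weights, -0.21 without LY_90d replicate 1 (highest 1.96 when 1 array was left out) and -0.12 without both arrays numbered 1. For these genes 124 values under the alternatives passed, and 1686 kept their direction without passing. The causes were not tested. Probes near 0.2 units limit what low genes can show.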
